A study of Rattus norvegicus with 6 samples.

Results

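The 5p and 3p arms of the hairpins of miR-22, miR-151, miR-153 and miR-340 were followed in small RNA sequencing of the rat hypothalamic arcuate nucleus (ARC). These 8 mature miRNAs were found by their names among the 562 miRNAs listed. They were chosen by the levels of their arms in these same libraries, as hairpins whose arms had moved apart between the groups. Differences between the groups are therefore given for them as a description, with no test. The study compared adult Sprague-Dawley rats, 8 to 10 weeks old, after chronic constriction injury of the left infraorbital nerve (CCI-ION, loose silk ligatures around the nerve, a model of trigeminal neuropathic pain) with sham rats, in which the nerve was exposed and not ligated. Tissue was taken on Day 14, and each group has 3 libraries. The study states more rats than libraries for each group, and which rats went into which library is not given, so the spread between libraries may be partly technical.

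A miRNA hairpin is cut by Drosha and Dicer into a duplex of a 5p and a 3p strand. Usually 1 strand is kept by an Argonaute protein and the other is degraded, and because the arms carry different seeds (bases 2 to 8, which pair with target mRNAs) they address different targets. Both arms come from the same precursor, and the ratio of 5p to 3p within a library does not depend on how the library is scaled. Reads of different sequences are captured with unequal efficiency in small RNA libraries, so which arm is more abundant within a library refers to reads and need not be the order of the molecules. In whole tissue, fewer cells of a type and less RNA per cell cannot be told apart.

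The mature sequences from RefSeq (assembly GRCr8, seed in capitals, 5′ to 3′) are shown because each arm has a seed of its own. The RefSeq sequence table held 6 of the 8 arms, and miR-151-5p and miR-151-3p are given by name only.
miR-22-5p: aGUUCUUCaguggcaagcuuua
miR-22-3p: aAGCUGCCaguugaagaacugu
miR-153-5p: gUCAUUUUugugauguugcagcu
miR-153-3p: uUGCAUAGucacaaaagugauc
miR-340-5p: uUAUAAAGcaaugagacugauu
miR-340-3p: uCCGUCUCaguuacuuuauagcc
The hairpins that hold them are printed with both mature arms in capitals, to show where each lies in its precursor.
Mir22 (GRCr8, chr10:60805331-60805425, plus strand): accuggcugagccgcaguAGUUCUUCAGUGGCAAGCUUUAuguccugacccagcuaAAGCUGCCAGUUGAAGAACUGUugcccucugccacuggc
Mir153 (GRCr8, chr6:144306594-144306680, plus strand): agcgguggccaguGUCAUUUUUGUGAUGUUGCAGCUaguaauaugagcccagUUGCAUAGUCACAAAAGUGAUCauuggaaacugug
Mir340-1 (GRCr8, chr10:34894650-34894747, plus strand): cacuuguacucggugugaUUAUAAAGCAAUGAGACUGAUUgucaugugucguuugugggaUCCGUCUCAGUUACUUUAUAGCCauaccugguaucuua

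In the RefSeq genes, Mir22 lies in the span of no other gene, Mir153 in that of Ptprn2 (a receptor-type phosphatase-like protein of dense-core vesicles) and of the long noncoding LOC120093227, Mir340-1 in that of Rnf130 (a ubiquitin ligase), and Mir151 in that of Ptk2 (focal adhesion kinase). Mir151 is also overlapped by Mir151b, and how reads of the shared locus were assigned is not given in the sources used here. No other miRNA of the files with a sequence has the seed of any of these 6 arms.

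Levels are normalized counts, the reads of a miRNA over its library's size factor, as deposited by the authors. The libraries held between 8628309 and 14313839 reads, with medians of 13611671 in sham and 9586078 in CCI-ION rats, and in each of them the lowest nonzero level stood for 5 reads. The share of all reads in the most abundant miRNA, miR-7a-5p, was 20.1% ± 3.93 (SD, n = 3) in sham and 11.4% ± 3.05 (SD, n = 3) in CCI-ION rats. The neuronal miRNAs miR-124-3p, miR-128-3p, miR-129-5p, miR-137-3p, miR-138-5p and miR-9a-5p were above 0 in all libraries. Their summed level was 2041436 to 2229136 normalized counts in sham and 1616061 to 2011890 in CCI-ION libraries, without overlap, and 1 of the 6 was lower by the limma test below. Among miRNAs typical of other cells, the summed level of those of the vessel wall and fibroblasts was 40429 to 56539 normalized counts in sham and 86302 to 104160 in CCI-ION libraries (2 of 4 higher by that test). That of the endothelium was 45442 to 54854 in sham and 63095 to 70810 in CCI-ION libraries (0 of 2 past the test). Its 2 members went opposite ways without overlap, with log2 fold changes of 0.44 for miR-126a-3p and -0.91 for miR-126a-5p. The summed level of the oligodendrocyte miRNAs was 497 to 558 in sham and 181 to 248 in CCI-ION libraries (1 of 2 lower, 1 at 0 in a library). The lists for erythrocytes, choroid plexus and ependyma, pituitary and epithelium, microglia and immune cells, and skeletal muscle had sums that overlapped between the groups and 0 members past the test. The part of these cells in the differences below was not tested.

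In all 4 hairpins the 3p arm was the more abundant arm in every sham library. Of 190 hairpins with both arms tested, 51.1% had 5p as the more abundant arm by the sham mean. By mean sham level, miR-151-3p ranked 71, miR-22-3p 78, miR-340-3p 139, miR-340-5p 185, miR-22-5p 193, miR-151-5p 247, miR-153-3p 378 and miR-153-5p 404 among the 562 miRNAs. The hairpins thus run from an abundant 3p arm beside a rare partner to arms near the limit of counting.

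**Figure D1:**
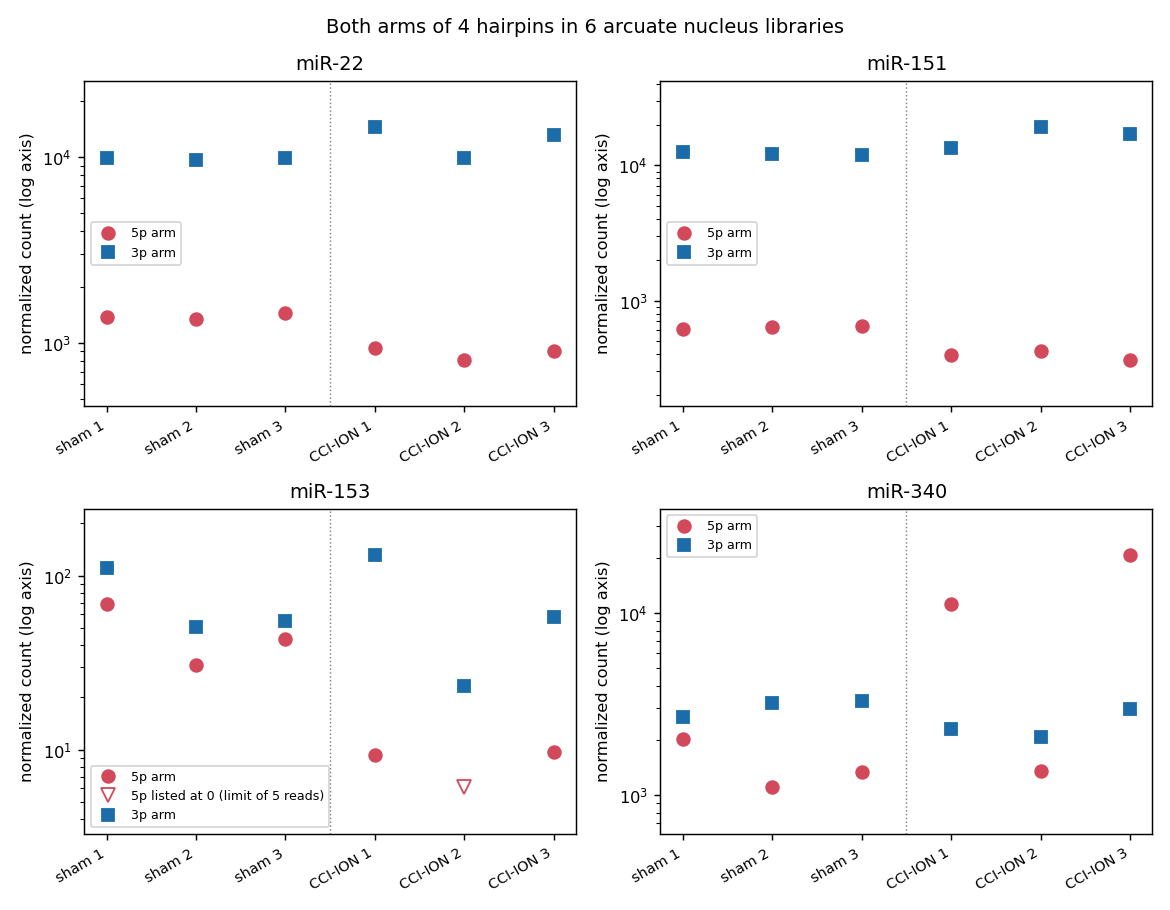
Normalized counts of the 5p arm (circles) and the 3p arm (squares) of each hairpin in the 3 sham and 3 CCI-ION libraries, on log axes that differ between panels. The open triangle marks miR-153-5p, listed at 0 in CCI-ION replicate 2, at the limit of 5 reads. The 5p arms of miR-22, miR-151 and miR-153 lie lower in every CCI-ION library, and miR-340-5p lies above its 3p partner in CCI-ION replicates 1 and 3 only.

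miR-22, which is expressed in many tissues, had a lower 5p arm in every CCI-ION library, while its 3p arm was within or above the sham range. Normalized counts of rno-miR-22-5p were 1385, 1353 and 1446 over sham replicates 1 to 3 and 934, 815 and 901 over CCI-ION replicates 1 to 3, the order used throughout. The groups did not overlap, and each lay within a narrow range. Those of rno-miR-22-3p were 9958, 9688 and 9886 under sham surgery and 14462, 9908 and 13144 under CCI-ION. CCI-ION replicates 1 and 3 were above every sham library and replicate 2 was within the sham range. The log2 fold changes, on the scale of log2(normalized count + 1) with standard errors from limma over all miRNAs, were -0.66 (standard error 0.11) for the 5p arm and 0.33 (standard error 0.17) for the 3p arm. With total-count and upper-quartile scaling they were -0.46 and -0.92 for the 5p arm and 0.53 and 0.07 for the 3p arm.

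Of the reads of both miR-22 arms, the 5p arm took 12.2% (95% Wilson interval 11.6 to 12.9), 12.3% (11.7 to 12.8) and 12.8% (12.2 to 13.3) in the sham libraries. Its share was 6.07% (5.71 to 6.44), 7.60% (7.06 to 8.17) and 6.42% (6.01 to 6.85) in CCI-ION replicates 1, 2 and 3. These intervals cover counting error only. Written as the level of one arm over the other, the 3p arm was 7.19, 7.16 and 6.84 times the 5p arm in sham and 15.5, 12.2 and 14.6 times in CCI-ION libraries. The log2 ratio of 5p to 3p went from -2.82 ± 0.04 to -3.81 ± 0.18 (SD, both n = 3), a shift of -0.99 (standard error 0.14). Replicate 2, whose normalized count of the 3p arm was within the sham range, also had the lowest 5p level of its group, and its ratio was outside the sham range.

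miR-151, from the Ptk2 locus, was the hairpin of the 4 whose arms were both without overlap between the groups, in opposite directions. For rno-miR-151-5p the sham libraries gave 611, 638 and 647 normalized counts and the CCI-ION libraries 394, 425 and 366. For rno-miR-151-3p the sham libraries gave 12541, 12050 and 11853 and the CCI-ION libraries 13458, 19092 and 17209. Here CCI-ION replicate 2 was the highest library of the 3p arm, unlike in miR-22 and miR-340. The log2 fold changes were -0.68 (standard error 0.11) for the 5p arm and 0.43 (standard error 0.16) for the 3p arm, and the latter was 0.64 with total-count and 0.18 with upper-quartile scaling. That of the 5p arm was -0.48 and -0.94.

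The miR-151-5p arm took 4.65% (95% Wilson interval 4.28 to 5.05), 5.03% (4.69 to 5.38) and 5.18% (4.83 to 5.55) of the hairpin's reads in the sham libraries. In CCI-ION replicates 1, 2 and 3 it took 2.85% (2.59 to 3.13), 2.18% (1.96 to 2.42) and 2.08% (1.87 to 2.31). On the log2 scale the ratio of 5p to 3p was -4.26 ± 0.08 under sham surgery and -5.38 ± 0.25 under CCI-ION (SD, both n = 3), a shift of -1.11 (standard error 0.17). Both arms with groups that do not overlap and opposite directions were found in 6.84% of the 190 hairpins, and the 5p arm lower with the 3p arm higher in this sense in 3.68%.

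miR-153, a brain-enriched miRNA from an intron of Ptprn2, was the least abundant of the 4 hairpins. Its 5p arm, rno-miR-153-5p, was read 60, 37 and 51 times under sham surgery, or 68.6, 30.8 and 43.0 normalized counts. Under CCI-ION it was listed at 10, 0 and 9 reads, or 9.30, 0 and 9.69 normalized counts, all below the lowest sham library. The limit of 5 reads is worth 6.09 normalized counts in CCI-ION replicate 2, so a lower level than that was not detectable there. The levels of rno-miR-153-3p were 111, 50.7 and 54.8 under sham surgery and 131, 23.1 and 58.1 under CCI-ION, where they spread 5.67-fold and enclosed the sham range.

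The share of the 5p arm of miR-153 was 38.2% (95% Wilson interval 31.0 to 46.0), 37.8% (28.8 to 47.6) and 44.0% (35.3 to 53.05) of 157, 98 and 116 reads in the sham libraries. It was 6.62% (3.64 to 11.8) of 151 reads in CCI-ION replicate 1 and 14.3% (7.70 to 24.97) of 63 reads in replicate 3. In replicate 2 only 19 reads of the 3p arm were left to set it against, and 5 reads of the 5p arm would have made a share of 20.8%. The log2 ratio was -0.69, -0.70 and -0.34 in the sham libraries and -3.68, -4.59 and -2.47 in the CCI-ION libraries, where -4.59 depends on the pseudocount. The shift was -3.004 (standard error 0.55) on this scale. It was -2.06 with each 0 set to the limit of 5 reads, a setting chosen after the data were seen, and -4.16 with a pseudocount of 0.1. The group means of the 3p arm were 72.1 ± 33.6 and 70.8 ± 55.1 normalized counts (SD, both n = 3). The log2 fold change of the 3p arm, -0.26 (standard error 0.68), became 0.37 without CCI-ION replicate 2 and 0.09 without sham replicate 1.

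miR-340, from the Rnf130 locus, moved toward the 5p arm, and in CCI-ION replicates 1 and 3 only. Sham libraries held 2027, 1106 and 1340 normalized counts of rno-miR-340-5p. CCI-ION libraries held 11251, 1349 and 20805, which is 7.54, 0.905 and 14.0 times the sham mean. Replicate 2 was within the sham range, and the spread within the CCI-ION group was 15.4-fold. Of rno-miR-340-3p the sham libraries held 2683, 3209 and 3306 and the CCI-ION libraries 2300, 2075 and 2963, so the groups overlapped and the highest and lowest CCI-ION libraries differed by 1.43-fold.

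The 5p arm of miR-340 took 43.0% (95% Wilson interval 41.5 to 44.6), 25.6% (24.5 to 26.8) and 28.8% (27.7 to 30.1) of the hairpin's reads in the sham libraries. It took 83.0% (82.4 to 83.6), 39.4% (37.6 to 41.2) and 87.5% (87.1 to 88.0) in CCI-ION replicates 1, 2 and 3. The more abundant arm was thus 3p in all sham libraries and in CCI-ION replicate 2, and 5p in CCI-ION replicates 1 and 3. By group means the more abundant arm differed between the groups in 5.26% of the 190 hairpins. The sum of both arms was 4711, 4315 and 4646 normalized counts in sham and 13551, 3424 and 23767 in CCI-ION libraries, and in replicates 1 and 3 the 3p arm did not exceed its sham range while the sum did. The log2 ratio went from -1.08 ± 0.60 to 1.49 ± 1.85 (SD, n = 3 each), a shift of 2.57 (standard error 0.97), and without CCI-ION replicate 2 the shift was 3.63. The log2 fold change of miR-340-5p was 2.24 (standard error 1.04), and 3.41 without that library.

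**Figure D2:**
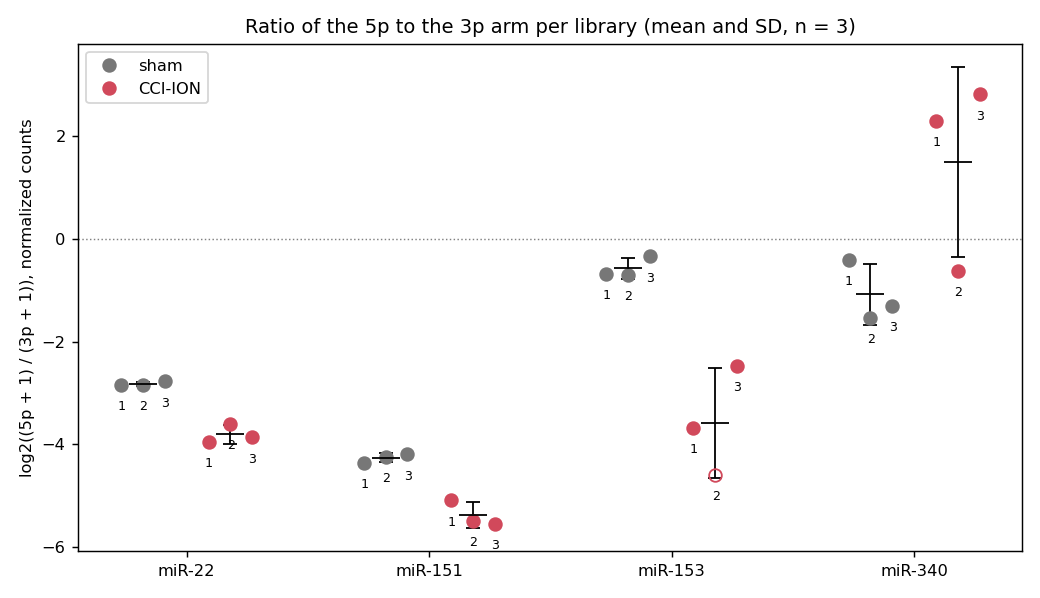
Log2 of the 5p arm over the 3p arm, on the scale of normalized count + 1, in each library (points, numbered by replicate), with group means and SD (bars, n = 3). The open point is miR-153 in CCI-ION replicate 2, where the 5p arm was listed at 0. The groups do not overlap for miR-22, miR-151 and miR-153, and CCI-ION replicate 2 lies among the sham libraries for miR-340.

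The spread of the ratios within sham rats differed between the hairpins. The SD of the log2 ratio over the sham libraries was 0.04 for miR-22, 0.08 for miR-151, 0.20 for miR-153 and 0.60 for miR-340. A smaller SD was found in 4.21%, 13.7%, 49.5% and 85.3% of the 190 hairpins, respectively. These shares are not matched for depth. The 76 hairpins with under 50 mean reads in the rarer arm had a median within-group SD of 0.62. It was 0.19 for the 48 hairpins with 500 to 5000 reads. Within CCI-ION rats the SD was 0.18, 0.25, 1.07 and 1.85, and a smaller one was found in 26.3%, 34.7%, 83.7% and 93.2% of the hairpins. In sham replicate 1, miR-340-5p and both arms of miR-153 were at the highest level of their group.

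Over all miRNAs, 38 of 555 passed the limma test (Benjamini-Hochberg adjusted p under 0.05), which is 6.85% (3.42% lower and 3.42% higher). An unadjusted p under 0.05 was found in 33.0% of the miRNAs. The 19 higher and 19 lower calls became 42 and 9 with total-count scaling, 9 and 79 with upper-quartile scaling, and 30 and 19 with totals without miR-7a-5p, and the log2 fold change of the median miRNA, -0.01, became 0.17 and -0.27 with the first and second of these. Groups that do not overlap were found in 40.7% of the miRNAs tested (21.3% lower, 19.5% higher) and in 4 of the 8 arms, miR-22-5p, miR-151-5p, miR-151-3p and miR-153-5p. For the log2 ratio of the arms, 20 of 190 hairpins passed (10.5%, with 6.32% toward 3p and 4.21% toward 5p). Of the 190, 32.6% had an unadjusted p under 0.05, 40.5% had groups that do not overlap and 22.6% had this toward 3p. Groups without overlap in miR-22, miR-151 and miR-153 follow from how the hairpins were picked and are not read further, and no call is given for the 8 arms or their ratios. Log2 fold changes of opposite sign in both arms were found in 41.1% of the hairpins, and miR-153, with both arms below 0, is not one of them.

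By the size of the shift, miR-153 ranked 1, miR-340 ranked 6, miR-151 ranked 29 and miR-22 ranked 37 of the 190 hairpins, whose median absolute shift was 0.49 on the log2 scale. The first rank of miR-153 was lost in several settings. With each 0 set to the limit of 5 reads miR-340 ranked 1 and miR-153 ranked 2. With a pseudocount of 0.1 miR-153 ranked 7, and with any 1 library left out it ranked 2 to 4. A shift of at least 1 was found in 18.4% and of at least 2 in 4.74% of the 190 hairpins. Small read numbers widen such ratios. The 76 hairpins with under 50 reads in the rarer arm (mean over the 6 libraries) had a median absolute shift of 0.65, against 0.41 for the 48 with 500 to 5000 reads. The rarer arm had 27.8 reads on average in miR-153, 530.5 in miR-151, 1178 in miR-22 and 2843 in miR-340. Among the 56 hairpins with at least 500 reads in the rarer arm, miR-340 ranked 1, miR-151 ranked 5 and miR-22 ranked 7. The groups of miR-340 overlapped, with a standard error of 0.97 for its shift, which came from CCI-ION replicates 1 and 3. miR-22, miR-151, miR-153 and miR-340 were picked because their arms moved apart, so high ranks follow from the choice and are not read further.

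**Figure D3:**
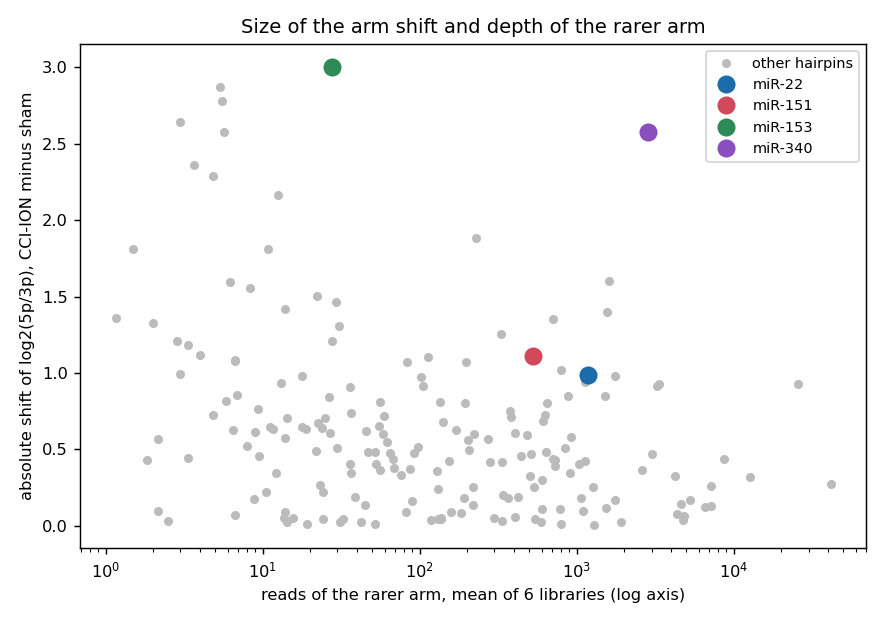
Absolute shift of the log2 ratio of 5p to 3p between the groups against the mean reads of the rarer arm (log axis), for 190 hairpins. miR-153 lies among hairpins with few reads, where large shifts are common. miR-340 has the largest shift of the 56 hairpins with at least 500 reads, but its groups overlap, with CCI-ION replicate 2 among the sham libraries. The marked hairpins were picked because their arms moved apart.

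**Figure D4:**
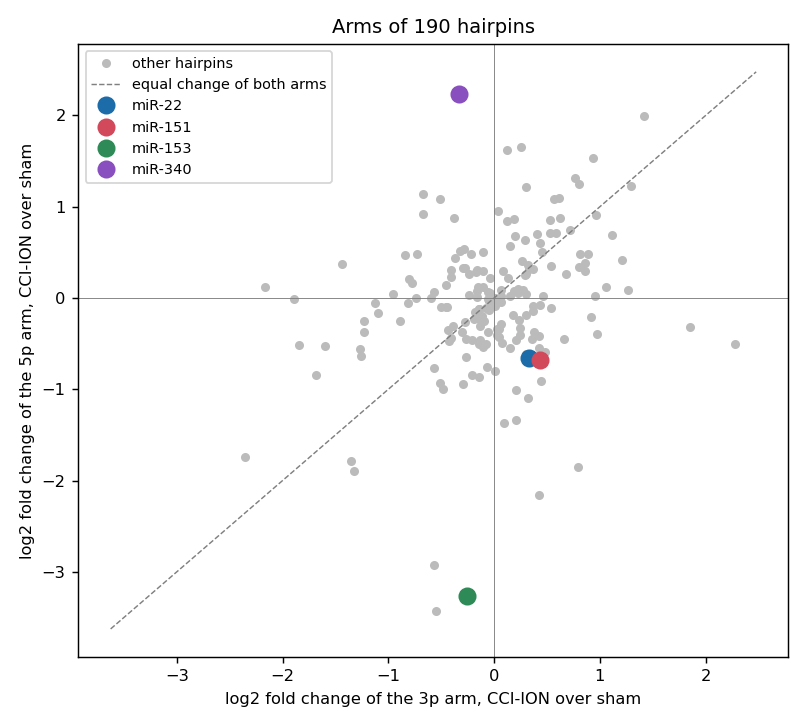
Log2 fold change of the 5p arm against that of the 3p arm, CCI-ION over sham, for 190 hairpins. On the dashed line both arms change equally. miR-22 and miR-151 lie beside each other, with 5p changes of -0.66 and -0.68, miR-153 far below the line and miR-340 far above it.

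The arms share few sequence features that the choice did not use. The first base and the G and C content of the first 4 bases are known to bear on which strand Argonaute keeps, with U and weak pairing at the 5′ end favoured. The more abundant sham arm began with U in miR-153 and miR-340 and with A in miR-22, while U was found in 47.3% of 165 hairpins with both sequences. Both arms began with U in miR-340, as in 9.09% of the 165. miR-340-5p had 0 G or C in its first 4 bases and miR-340-3p had 3, and miR-22-5p had 1 and miR-22-3p had 2, so that in these hairpins the more abundant sham arm had more G and C at its 5′ end, as in 30.9% of the 165. Both miR-153 arms had 2.

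Base composition also went with the library that stood apart in miR-340, in a comparison added after the data were seen. Over 445 miRNAs with a sequence and a mean of at least 10 normalized counts, Spearman's rho between the percentage of G and C and the log2 level of CCI-ION replicate 2 relative to replicates 1 and 3 was 0.37. This is a correlation across miRNAs, which share the libraries and are not independent, and it is given as a description. The 117 miRNAs with the least G and C had a median difference of -0.25 and the 116 with the most had 0.17. miR-340-5p, with 27.3% G and C, is lower in G and C than nearly all of them (0.674% have less), and its difference was -3.50. The 3 miRNAs with less G and C, named after their values were seen, had smaller differences, with -0.12 for miR-190a-5p, -0.44 for miR-369-3p and -1.63 for miR-190b-5p. Those with the same 27.3%, also named after their values were seen, had -2.18 (miR-374-3p), -2.01 (miR-384-3p) and -0.42 (miR-1b). miR-340-3p had 43.5% and -0.33, miR-153-3p 36.4% and -1.87, miR-153-5p 39.1% and -3.39 (from a value of 0 in replicate 2), and the arms of miR-22 40.9% and 45.5% with -0.17 and -0.48. Over the 165 hairpins, the difference in G and C between the arms had a rho of 0.39 with the ratio in replicate 2 relative to replicates 1 and 3, and of 0.10 with the shift between the groups. Whether base composition has a part in the levels of this library was not tested.

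**Figure D5:**
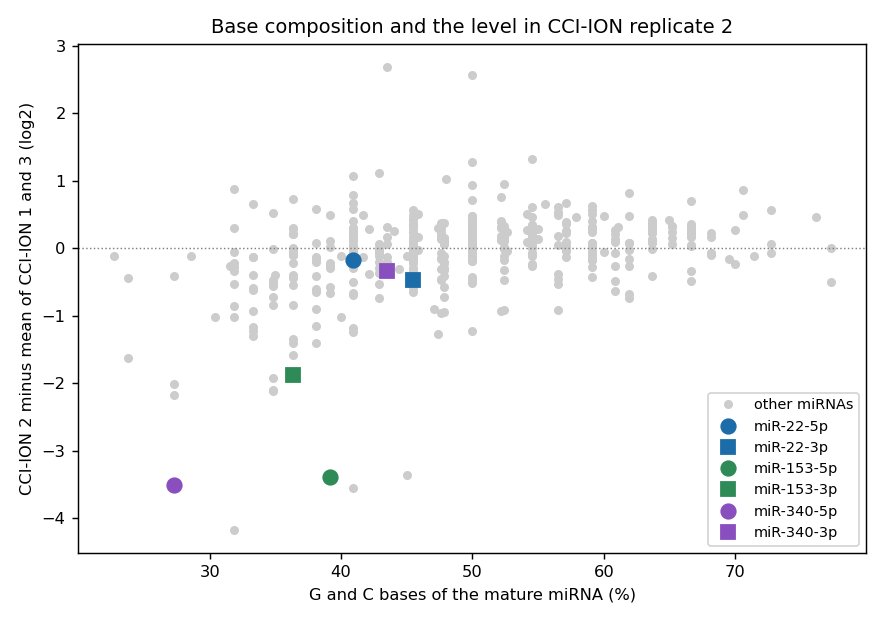
Log2 level in CCI-ION replicate 2 minus the mean of CCI-ION replicates 1 and 3 against the percentage of G and C in the mature sequence, for 445 miRNAs with the 6 arms that have a sequence marked. miR-340-5p lies far below 0 at 27.3%, as does miR-153-5p at 39.1% (from a value of 0). The 5p and 3p arms of miR-22 lie at -0.17 and -0.48.

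Relatives of these hairpins were also followed. miR-28 and miR-708 are related in sequence to miR-151, and miR-448-3p to miR-153-3p. None of miR-28-5p, miR-28-3p, miR-708-5p, miR-708-3p and miR-448-3p passed the limma test (adjusted p from 0.160 to 0.978, log2 fold changes from -0.14 to 0.37). miR-28-3p, at 1904 ± 255 against 2455 ± 259 normalized counts (sham against CCI-ION, SD, both n = 3), had groups that did not overlap. The log2 ratio of 5p to 3p of miR-28 was -1.12 ± 0.16 in sham and -1.63 ± 0.24 in CCI-ION rats, a shift of -0.51 (standard error 0.18, adjusted p = 0.127 from limma), and that of miR-708 shifted by -0.10 (standard error 0.13, adjusted p = 0.658). The ratio of miR-448 went from -1.36 ± 0.26 to -2.33 ± 0.25, a shift of -0.97 (standard error 0.21, adjusted p = 0.0430 from limma), toward the 3p arm. Over 11 alternatives its adjusted p ranged from 0.0255 to 0.151, and it passed in 5 of them, not with the replicate block or without any 1 of sham replicates 1, 2 and 3 and CCI-ION replicates 1 and 3.

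The miRNAs with the most similar profile over the 6 libraries were found by the root-mean-square difference of centred log2 levels, among miRNAs with a mean of at least 100 normalized counts. Nearest to miR-22-5p were let-7f-5p (0.081) and miR-151-5p (0.12). Nearest to miR-151-5p were miR-221-3p (0.066) and miR-107-3p (0.076). The 3p arm of miR-22 was most like miR-381-3p (0.098) and miR-362-5p (0.11), and that of miR-151 most like miR-125b-2-3p (0.068) and miR-204-3p (0.092). miR-340-3p was nearest to miR-3084a-3p (0.10) and miR-6319 (0.12).

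For the remaining arms the nearest profiles were less close. miR-153-3p was nearest to miR-136-3p (0.32) and miR-136-5p (0.43), and miR-153-5p to miR-190b-5p (0.76) and miR-374-3p (0.81). miR-340-5p was nearest to miR-653-5p (1.02) and miR-29c-3p (1.06). Levels of miR-653-5p were 1483, 1501 and 1268 under sham surgery and 3978, 1705 and 4012 under CCI-ION. Those of miR-29c-3p were 727, 833 and 807 under sham surgery and 1386, 609 and 2405 under CCI-ION. In both, as in miR-340-5p, CCI-ION replicates 1 and 3 were above every sham library and replicate 2 was the lowest of its group. Both were picked for their likeness over these same libraries, so the shared pattern follows from the choice. Unlike in miR-340-5p, replicate 2 was above every sham library in miR-653-5p and below every one in miR-29c-3p.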

How the data were processed

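Small RNA of the ARC was sequenced in 3 sham and 3 CCI-ION libraries, grouped by the sample titles. The signal the authors deposited for each mature miRNA is its reads over a size factor. The submitters' processing notes name cutadapt 1.14, Bowtie 1.1.1 and rn6, and the labels name an Illumina TruSeq RNA kit. The annotation, filters and normalization are not given in the sources used here. Every value was a whole multiple (within 0.01 reads) of a step per library that equals 1 over the median-of-ratios size factor over 485 miRNAs, which gives the reads.

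limma 3.58.1 in R 4.3.3 was run two-sided on log2(value + 1) for the 555 miRNAs whose mean reached 1, and on the log2 ratio of 5p to 3p for 190 hairpins, with Benjamini-Hochberg adjustment over each and a threshold of 0.05. The fits were run on simulated data that had the same set spread between libraries for all miRNAs. That run tests the code and not how well the fits suit the spread of these libraries. The study's methods name Student's t test for comparing 2 groups and no test for the sequencing. miRNAs named were the 8 arms, their relatives, the 2 nearest profiles per arm, the most abundant and markers of cell types. Those named for their low G and C content were added after their values were seen. The members and lists were chosen with earlier results of these data known. Libraries of a group differed by more than sampling noise. Alternatives were 3 scalings, filters, a pseudocount of 0.1, a replicate block and leaving out each library. Sequences, matched for 512 of 562 miRNAs, are RefSeq's for GRCr8.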

Additional observations from a re-analysis of the deposited data

How the results depend on the processing

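The direction of the ratio shift of all 4 hairpins was kept in each alternative run, but much of this was fixed in advance. The filters and the replicate block leave the shift itself unchanged, and the scalings were not run on the ratios. For miR-22, miR-151 and miR-153, whose groups do not overlap, leaving out a library cannot reverse the direction. Leaving out each library in turn, the shifts ranged from -1.09 to -0.92 for miR-22, -1.26 to -1.03 for miR-151, -3.56 to -2.50 for miR-153 and 1.92 to 3.63 for miR-340. That of miR-153 was -4.16 with a pseudocount of 0.1 and -2.06 with each 0 set to the limit of 5 reads, an alternative chosen after seeing the data. Among the arms, miR-153-3p alone changed sign, with a range of -0.86 to 0.37 when a library was left out (0.09 in the absence of sham replicate 1, 0.37 in that of CCI-ION replicate 2).

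Of all miRNAs, 88 passed with upper-quartile scaling, 63 with a mean of at least 10, 101 with a mean of at least 100, and 7 to 43 when a library was left out (9, 11 and 7 lacking sham replicates 1, 2 and 3, and 11 lacking CCI-ION replicate 3). For hairpins 30 passed with a mean of at least 10, and 3 to 22 when a library was left out (4, 6 and 3 lacking sham replicates 1, 2 and 3, and 12 lacking CCI-ION replicate 1). With the replicate block in limma, 3 miRNAs and 0 hairpins passed (154 and 58 at an unadjusted p under 0.05). The correlations of deviations between libraries that share a number were -0.03, 0.19 and -0.01, and not every library correlated best with its own number, so pairing was not assumed. An edgeR test on the recovered reads was planned and not run. Depth limits miR-153, with at most 10 reads of the 5p arm in a CCI-ION library. The cause of these changes was not tested.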
